A study of Mus musculus with 76 samples.

Results

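The genes described are 44 interferon-stimulated and class I antigen presentation genes, taken by name from the table of raw read counts, which holds 54232 genes, and followed through 3 tissues and 5 arms. The rule names the genes and uses none of their values. The question put to the list was whether mice given vector-carrying cells differed from mice given control cells. The study, on Na/K-ATPase signalling of fat tissue in the heart disease of kidney failure, sequenced RNA from heart, kidney and visceral fat (VFAT) of male SCID mice, 12 weeks of age, in 76 libraries. The mice carry the Prkdc-scid allele on the CB17 background (the Fox Chase SCID line), so they lack working T and B lymphocytes but keep NK cells, macrophages and neutrophils. One arm had sham surgery (Sham) and received no cells. The other 4 had a partial nephrectomy (PNx), the surgical removal of kidney tissue: PNx with no cells, and PNx with a transplant labelled Control Cells, Lenti-adipo-NaKtide or Lenti-adipo-scrambled. NaKtide is a peptide derived from the Na/K-ATPase that blocks its signalling through the kinase Src, and the scrambled arm is, by its name, the sequence control. The arms whose label begins with Lenti are called the vector arms here. The labels describe neither the vector, nor the cells, nor the time between transplant and collection. They do not say whether the control cells carried an empty vector. None of the 76 libraries came from a cell transplant without PNx, so cells alone cannot be assessed here. Every group had 5 samples except fat with scrambled cells, which had 4. The labels do not say whether libraries with the same number came from the same mouse, nor whether those of a group came from separate litters or cages, so a p-value here speaks of the spread among these libraries alone.

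Interferons are secreted proteins that cells release on sensing foreign or misplaced nucleic acid, and NK and T cells release interferon gamma on their own account. Their receptors act through the kinases Jak1 and Tyk2 or Jak2, and send transcription factors, Stat2 and Irf9 among them, to short DNA elements at the promoters of many genes. Those genes include the sensors themselves, antiviral proteins, GTPases that attack the compartments of intracellular microbes, and the proteasome subunits, transporters and class I molecules that show peptides to cytotoxic cells.

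The interferon-stimulated response element, read by the complex that holds Stat2 and Irf9, is shown for 8 members whose values are given below, because the rule for the list makes no use of it. Each stretch has 50 bases, is read 5′ to 3′ on the strand of the gene, and comes from the RefSeq promoter windows of build GRCm38.p6. Capitals mark GAAANNGAAA or its reverse complement TTTCNNTTTC, overlapping matches included. The stretches lie for Isg15 at chr4:156200867-156200916 (- strand), Ifit1 at chr19:34640765-34640814 (+ strand), Bst2 at chr8:71537573-71537622 (- strand) and Gbp2 at chr3:142620584-142620633 (+ strand). The others lie for Gbp5 at chr3:142496749-142496798 (+ strand), Igtp at chr11:58199502-58199551 (+ strand), B2m at chr2:122147528-122147577 (+ strand) and Cxcl10 at chr5:92349073-92349122 (- strand).
Isg15: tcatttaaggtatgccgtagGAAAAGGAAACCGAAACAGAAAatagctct
Ifit1: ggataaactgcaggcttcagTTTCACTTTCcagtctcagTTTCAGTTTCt
Bst2: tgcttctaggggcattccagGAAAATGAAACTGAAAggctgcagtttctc
Gbp2: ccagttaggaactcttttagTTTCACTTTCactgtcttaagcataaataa
Gbp5: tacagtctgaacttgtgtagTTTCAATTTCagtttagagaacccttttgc
Igtp: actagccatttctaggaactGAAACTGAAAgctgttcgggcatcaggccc
B2m: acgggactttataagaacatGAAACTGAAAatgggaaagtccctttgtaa
Cxcl10: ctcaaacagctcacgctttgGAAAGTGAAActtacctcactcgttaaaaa

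Isg15 carried 3 overlapping matches, Ifit1 carried 2 and Bst2 carried 2, while the other 5 stretches each held 1. Windows of 300 bases, from 250 before to 50 after the gene's start, were found for 34 of the 44 members. Both strands were searched, and 18 of those 34 members (52.9%) held the element, against 3.99% of all 27025 genes with a window. The shorter letters TTCNNNGAA, of the element known from interferon gamma responses, were in 9 of the 34 members (26.5%) and in 9.55% of all genes with a window. A match is a run of letters and not a measured binding site. Dhx58, Zbp1, Oas2, Mx2, Rtp4, Usp18, Parp9, Parp14, Iigp1 and Tap2 had no entry.

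Library totals ran from 1241590 to 20037187 counts, with 931 to 60446 of them from the 44 members. Kidney control cells 5 was the lowest in both, so its CPM values rest on the fewest reads. Levels are CPM, counts scaled by TMM to the library total, comparable between libraries of a tissue but not between genes. The tissue labels held: Myh6 of heart muscle was at 9851 to 25830 CPM in every heart library, Umod of kidney tubule at 1697 to 4401 in every kidney library and Adipoq of adipocytes at 229 to 2880 in every fat library. The 8 T cell markers summed to at most 12.9 CPM, in kidney PNx 3, and Cd3e among them was at or below 0.479 CPM in every library. Several libraries stood apart. Heart Sham 2 and 3 held kidney tubule markers, up to 2858 CPM in sum. In kidney, PNx 3, 4 and 5 and control cells 4 and 5 were the highest in short relative to long genes, and the vector arms varied in this too, as detailed below. In fat, 4 of 5 Sham libraries held 4557 to 9873 CPM of epididymis markers, and scrambled cells carried 4.32 to 17659 CPM of exocrine pancreas and 491 to 35842 CPM of skeletal muscle markers.

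In Sham mice the class I genes dominated the list. The authors' FPKM values, which are per kilobase of gene and so comparable between genes, put B2m, the light chain of class I molecules, first in each tissue with a median of 253 in heart, 204 in kidney and 756 in fat. H2-D1, a class I heavy chain, came second with 79.1, 95.1 and 259.6. Oas3, an oligoadenylate synthase, was the lowest member in each tissue, with Sham medians of 0.0478, 0.0463 and 0.0522. It did not pass the filter for low counts in any tissue. Cxcl10, a chemokine, did not pass in heart, which left 42 members tested there and 43 each in kidney and fat.

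**Figure D1:**
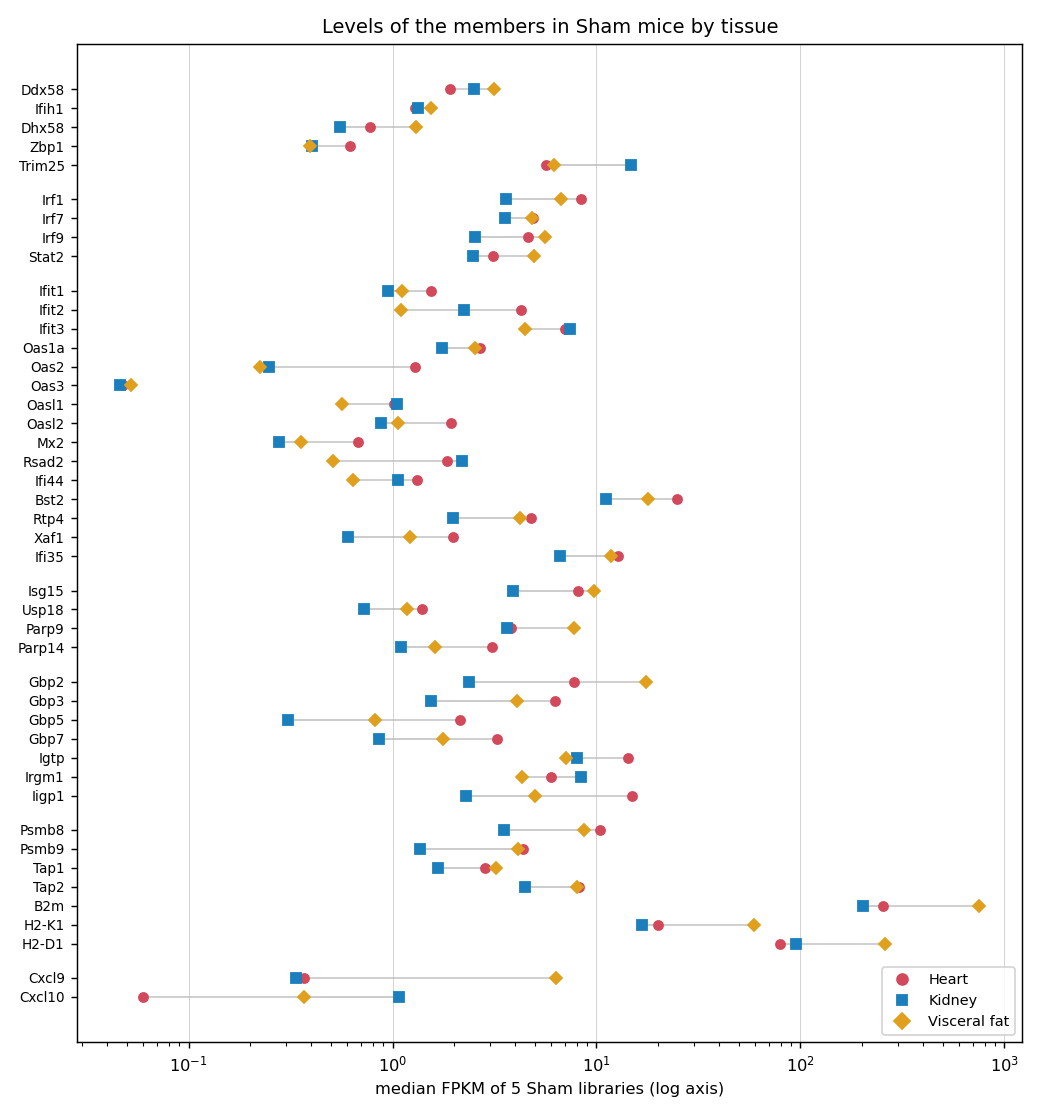
Median FPKM (log axis) of each member over the 5 Sham libraries of heart (circles), kidney (squares) and visceral fat (diamonds), grouped from top to bottom by role. B2m lies highest in each tissue, and Cxcl9 stands at 6.34 in fat against 0.368 in heart and 0.338 in kidney.

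Tested over all genes in the Sham libraries, 3 members were higher and 21 lower in kidney than in heart, where 30.3% and 28.3% of all 19180 genes were called higher and lower. Cxcl10 was higher in kidney by 3.76 ± 0.84 on the log2 scale (SE, adjusted p = 9.4e-05) and Trim25, a ubiquitin ligase of the RNA sensing pathway, by 1.39 ± 0.15 (adjusted p = 9.4e-12). Cxcl10 counts in heart Sham were 1, 0, 2, 0 and 1, so its difference is set against a floor. It did not pass the filter within heart and entered the fit over all tissues through other groups. Gbp5, a guanylate-binding GTPase, was lower in kidney by a log2 value of -2.67 ± 0.5 (adjusted p = 5e-06). In fat against heart, 10 members were higher and 7 lower, beside 32.8% and 24.4% of all genes. Cxcl9, a chemokine for T and NK cells, was higher in fat by 3.18 ± 0.51 (adjusted p = 2.4e-07) and B2m by 1.6 ± 0.19 (adjusted p = 8.3e-11). Oas2 was lower in fat by -1.98 ± 0.47 (adjusted p = 0.00022). In fat against kidney, 22 members were higher and 6 lower, beside 28.8% and 22.7%. H2-K1, the other class I heavy chain on the list, was higher in fat by 1.64 ± 0.25 (adjusted p = 7.1e-08) and Gbp2 by 2.78 ± 0.38 (adjusted p = 5.3e-09). Rsad2, which encodes the antiviral enzyme viperin, was lower in fat than in kidney by -1.92 ± 0.37 (adjusted p = 1.1e-05). Heart Sham 2 and 3 bear on these counts. Without them, an alternative chosen after the data were seen, 2 members were higher and 19 lower in kidney than in heart, and 6 higher and 9 lower in fat than in heart. The calls of Cxcl10, Trim25, Gbp5, Cxcl9, B2m and Oas2 named here were kept, while Gbp2, called higher in fat than in heart at 1.04 (adjusted p = 0.01), came to 0.65 (adjusted p = 0.179). Fat Sham libraries with epididymis markers enter each fat value, and their part was not tested here. In whole tissue, more cells of a kind and more RNA per cell cannot be told apart.

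No member passed the test between the vector arms and control cells in any tissue (edgeR, adjusted over all genes). The share of all genes called was 0% in heart, 0.135% in kidney and 1.17% in fat. DESeq2 likewise called no member, and limma's voom with quality weights called 5 in heart, 2 in kidney and none in fat. The share of all genes called is given for edgeR only, here and below, and not for voom or DESeq2. At an unadjusted p under 0.05 there were 12 members in heart, 11 of them lower with the vector, 4 in kidney, each lower, and 2 in fat, each higher, beside 2.82%, 14.21% and 8.97% of all genes. The median log2 difference of the members was -0.32 in heart, with 38 of 42 negative, 0.02 in kidney, with 19 of 43 negative, and 0.19 in fat, with 37 of 43 positive. Medians over all genes were 0.00, 0.01 and 0.01. The data bound these differences unevenly: the 95% interval lay within 1 log2 unit of 0 for 30 of 42 members in heart, 29 of 43 in kidney and 31 of 43 in fat.

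**Figure D2:**
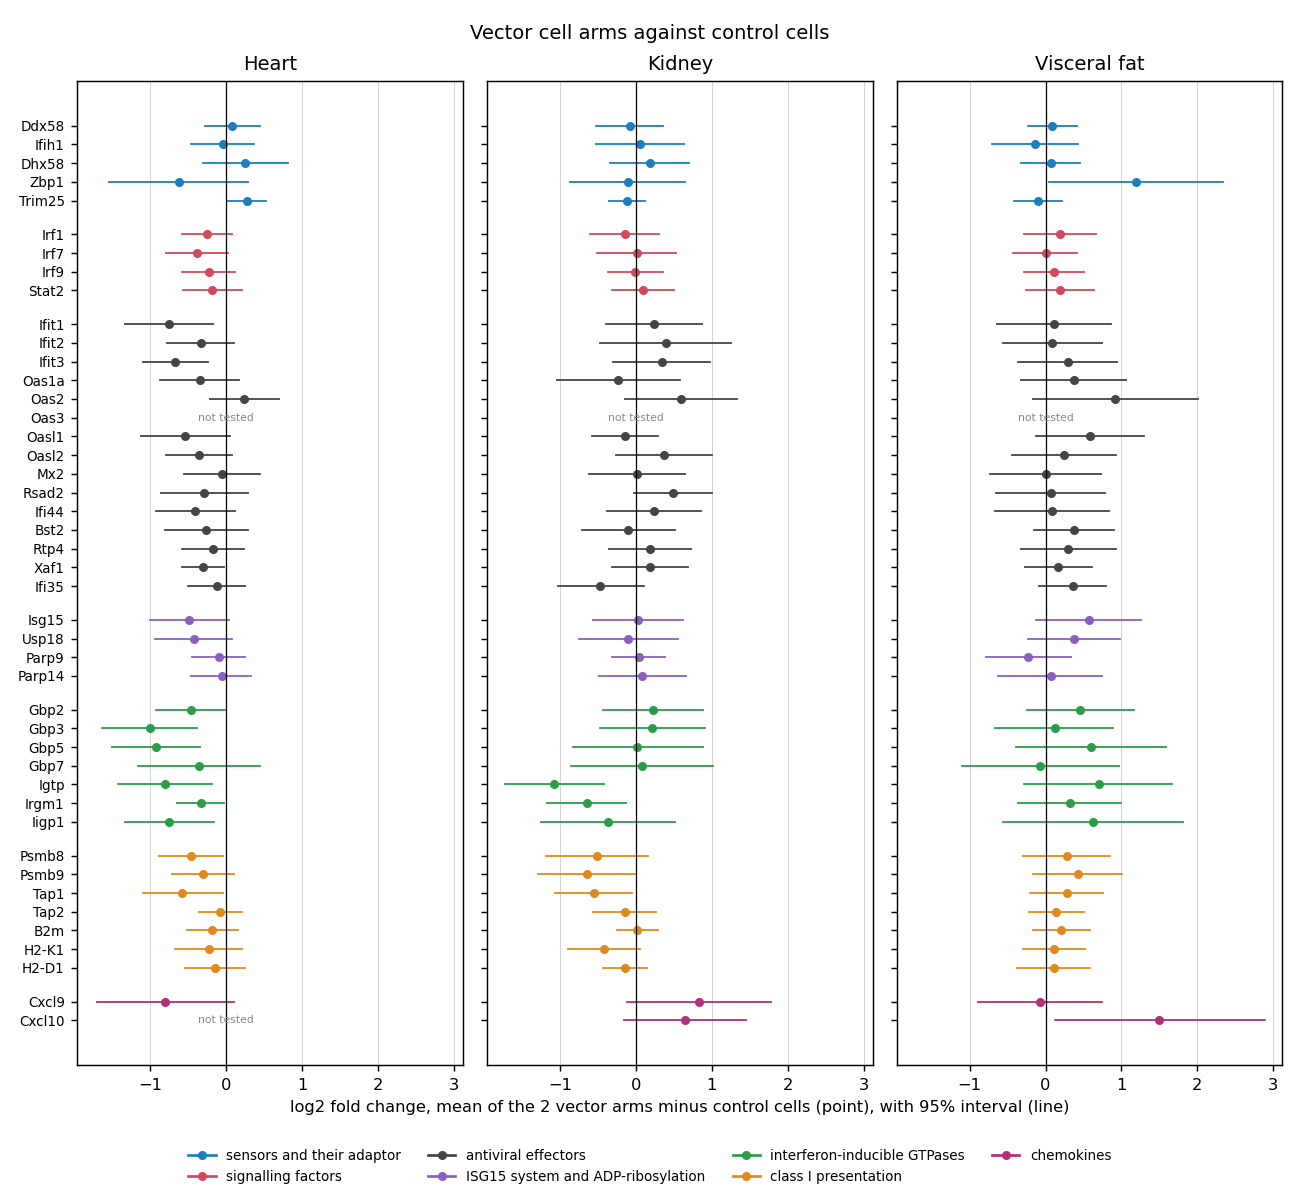
Log2 difference of each member, the mean of both vector arms minus control cells (points), with its 95% interval (lines), in heart, kidney and visceral fat, coloured by role. In heart 38 of 42 points lie left of 0 and in fat 37 of 43 lie right of it, and no member passed the adjusted test.

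Single libraries carried much of these shifts. The mean log2 level over the members was 3.57 ± 0.40 with control cells in heart (SD, n = 5), against 3.29 ± 0.10 with NaKtide and 3.37 ± 0.13 with scrambled cells. Control cells 2 stood at 4.2 and its 4 partners at 3.27 to 3.73. Libraries of that number were the highest of the control arm for 34 of 44 members in heart, 22 in kidney and 33 in fat. Without heart control cells 2 the heart median was -0.11, and the kidney median went from 0.02 to 0.18 without kidney control cells 2. In kidney, the mean level was 3.44 ± 0.29 with control cells, 3.36 ± 0.29 with NaKtide and 3.61 ± 0.26 with scrambled cells, and scrambled cells 5 was the highest of its arm for 31 members. In fat, the mean level was 4.41 ± 0.28 with control cells (n = 5), 4.19 ± 0.17 with NaKtide (n = 5) and 4.96 ± 0.76 with scrambled cells (n = 4). Fat scrambled cells 4 stood at 6.01, against 4.38, 4.42 and 5.02 in its partners, and was the highest of all fat libraries for 38 of 44 members. Without it the fat median was -0.00.

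**Figure D3:**
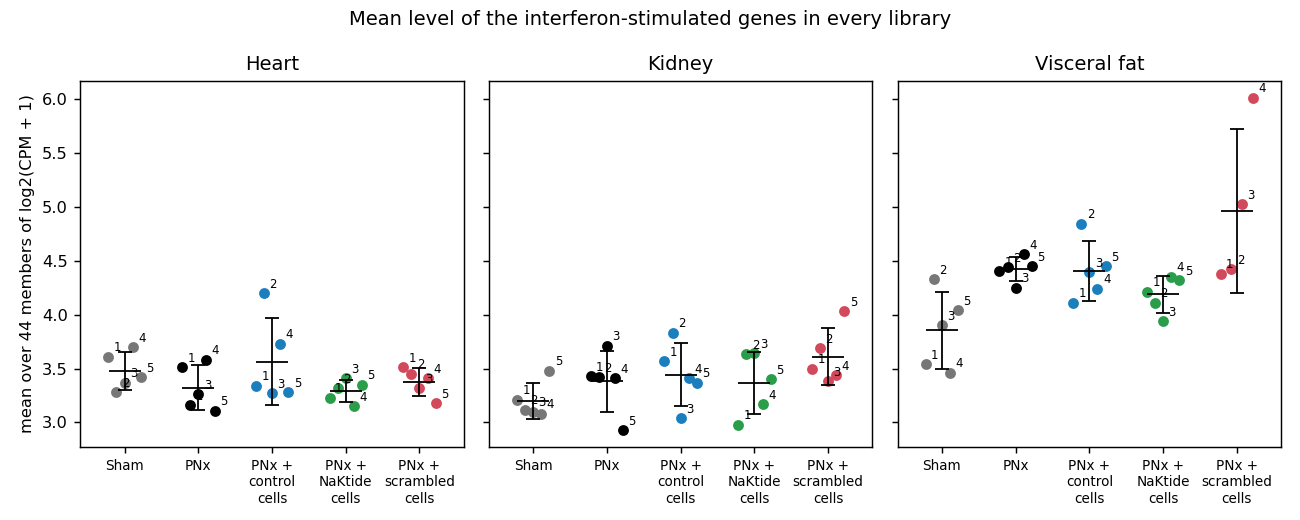
Mean over the 44 members of log2(CPM + 1) in every library (numbered points), with the mean and SD of each arm (bars), for heart, kidney and visceral fat. Heart control cells 2 at 4.2 and fat scrambled cells 4 at 6.01 lie above the other libraries of their tissue.

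Ddx58 encodes RIG-I, a sensor of viral RNA, and its differences between the vector arms and control cells were 0.08, -0.08 and 0.09 in heart, kidney and fat, the order kept in what follows. For Ifih1, a related RNA sensor, they were -0.05, 0.05 and -0.14, and for Dhx58, which regulates both, 0.25, 0.18 and 0.07. Trim25 gave 0.27, -0.12 and -0.1, and in heart it was called by voom alone at 0.36 (adjusted p = 0.049). Zbp1 senses nucleic acid in the Z form and can start inflammatory cell death. Zbp1 in the visceral fat stood at 2.44, 7.84, 4.41, 3.25 and 3.91 CPM with control cells, 6.7, 3.09, 2.86, 5.03 and 3.9 with NaKtide cells and 2.88, 7.13, 10.5 and 73.6 with scrambled cells. Scrambled cells 4 exceeded every other fat library, and the arms overlapped. The difference in fat was 1.19 (95% interval 0.05 to 2.34), with an adjusted p of 0.529, and it was 0.30 without scrambled cells 4. In heart and kidney it was -0.62 and -0.11.

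Irf9 and Stat2, partners in the complex that reads the element shown above, gave differences of -0.23, -0.01 and 0.11 and -0.19, 0.09 and 0.19. Irf1, a factor strongly induced by interferon gamma, gave -0.26, -0.15 and 0.19. Irf7 amplifies the type I interferon genes. Irf7 in the heart stood at 15.4, 25.7, 8.93, 16.5 and 12.8 CPM with control cells, 12.3, 10.4, 13.6, 13.9 and 20.6 with NaKtide cells and 12.1, 12.4, 9.35, 10.2 and 7.62 with scrambled cells. Irf7 without cells, in heart, was 13.5, 14.8, 15.9, 15.8 and 10.2 CPM in Sham and 17.4, 10.8, 11.6, 18.2 and 13.7 in PNx. Control cells 2 was highest in heart and the arms overlapped, with a difference of -0.39 (95% interval -0.79 to 0.02). Irf7 in the kidney stood at 18.5, 28, 11.7, 27.1 and 24.7 CPM with control cells, 15.6, 23.7, 22.1, 15 and 17.2 with NaKtide cells and 22.3, 29.1, 18.9, 22.7 and 33.4 with scrambled cells. Irf7 without cells, in kidney, was 13.9, 14.4, 9.84, 10.4 and 16 CPM in Sham and 17, 17.1, 51.4, 28.7 and 16 in PNx. PNx 3 was highest in kidney, and the cell arms overlapped with a difference of 0.01 (95% interval -0.51 to 0.53). Irf7 in the visceral fat stood at 30, 51.8, 47.3, 47.1 and 40.1 CPM with control cells, 36.5, 33.4, 38.7, 26.2 and 36.6 with NaKtide cells and 29.1, 41.4, 61.1 and 86.3 with scrambled cells. Irf7 without cells, in visceral fat, was 20.3, 28, 19.3, 21.7 and 23.6 CPM in Sham and 34.5, 55.1, 30, 28.4 and 40.2 in PNx. Scrambled cells 4 was again highest, the cell arms overlapped, and the difference was -0.0 (95% interval -0.43 to 0.42).

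Among the antiviral effectors, Ifit1 binds foreign RNA at its end. Ifit1 in the heart stood at 4.28, 11, 5.21, 5.96 and 4.55 CPM with control cells, 3.28, 5.28, 3.82, 1.5 and 2.87 with NaKtide cells and 6.09, 3.89, 2.42, 4.6 and 2.73 with scrambled cells. Ifit1 without cells, in heart, was 5.81, 3.26, 3.18, 3.77 and 2.85 CPM in Sham and 3, 1.61, 4.11, 5.81 and 4.49 in PNx. Control cells 2 was highest in heart and the difference between vector arms and control cells was -0.76 (95% interval -1.34 to -0.17). Ifit1 in the kidney stood at 5.82, 5.37, 2.82, 2.56 and 2.47 CPM with control cells, 1.89, 6.99, 6.81, 3 and 5.11 with NaKtide cells and 2.51, 5.1, 4.06, 4.2 and 8.18 with scrambled cells. Ifit1 without cells, in kidney, was 2.65, 2.58, 2.56, 2.36 and 4.33 CPM in Sham and 5.07, 3.15, 3.81, 2.98 and 2.66 in PNx. Scrambled cells 5 was highest in kidney and NaKtide cells 1 lowest, with a difference of 0.24 (95% interval -0.4 to 0.87). Ifit1 in the visceral fat stood at 2.93, 9.03, 5.06, 3.4 and 5.96 CPM with control cells, 2.73, 5.2, 3.03, 4.12 and 5.24 with NaKtide cells and 2.64, 5.97, 7.44 and 16.4 with scrambled cells. Ifit1 without cells, in visceral fat, was 1.46, 5.61, 3.51, 2.47 and 4.45 CPM in Sham and 5.43, 4.05, 4.09, 7.45 and 5.09 in PNx. Scrambled cells 4 was highest in fat, and the difference was 0.11 (95% interval -0.64 to 0.86). Its neighbour Ifit3 had the third lowest p in heart. Ifit3 in the heart stood at 6.23, 21.8, 9.92, 11 and 11.6 CPM with control cells, 5.56, 6.65, 6.8, 8.06 and 9.85 with NaKtide cells and 10.4, 7.89, 5.31, 7.96 and 7.19 with scrambled cells. Control cells 2, 4 and 5 exceeded every vector library, control cells 1 and 3 lay among them, and the difference was -0.67 (95% interval -1.1 to -0.24) with an adjusted p of 1. Without control cells 2 it was -0.36, and voom called Ifit3 at -0.91 (adjusted p = 0.016). In kidney and fat it was 0.34 and 0.29.

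Oasl2 is a relative of the oligoadenylate synthases. Oasl2 in the heart stood at 12.9, 20.6, 8.43, 12.5 and 8.46 CPM with control cells, 8.48, 10.2, 8.23, 8.75 and 12.6 with NaKtide cells and 10.1, 11, 6.58, 12 and 9.56 with scrambled cells. Oasl2 without cells, in heart, was 10.1, 7.17, 6.82, 12.4 and 9.98 CPM in Sham and 8.87, 5.2, 7.28, 12.9 and 6.62 in PNx. The arms overlapped in heart, with a difference of -0.36 (95% interval -0.79 to 0.07). Oasl2 in the kidney stood at 7.85, 10, 3.76, 5.62 and 9.88 CPM with control cells, 6.07, 12.4, 11.8, 6.28 and 9.64 with NaKtide cells and 8.17, 9.07, 5.72, 10.2 and 13.3 with scrambled cells. Oasl2 without cells, in kidney, was 5.77, 6.05, 4.36, 3.2 and 11.8 CPM in Sham and 6.24, 7.3, 11.2, 11 and 4.34 in PNx. In kidney the highest library was scrambled cells 5 and the lowest Sham 4, and the difference was 0.37 (95% interval -0.26 to 1.0). Oasl2 in the visceral fat stood at 11.2, 30.3, 14.8, 9.6 and 10.6 CPM with control cells, 14, 12.4, 8.03, 21.8 and 11.8 with NaKtide cells and 13.1, 17.5, 18.5 and 48.3 with scrambled cells. Oasl2 without cells, in visceral fat, was 5.86, 13.8, 8.02, 6.55 and 8.67 CPM in Sham and 16, 14.5, 11, 24.9 and 14.9 in PNx. Fat control cells 2 and scrambled cells 4 each stood above the rest of their arms, and the difference was 0.24 (95% interval -0.44 to 0.93). Oas2, whose product activates an RNA-degrading enzyme, had the third lowest p in fat. Oas2 in the visceral fat stood at 3.09, 11.7, 2.98, 4.43 and 4.88 CPM with control cells, 15, 3.87, 3.48, 17.8 and 3.56 with NaKtide cells and 6.24, 14.9, 6 and 21.8 with scrambled cells. The arms overlapped, with a difference of 0.92 (95% interval -0.17 to 2.01) and an adjusted p of 0.613. It was 0.69 without scrambled cells 4.

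The other effectors are given by their differences alone. Ifit2 gave -0.34, 0.39 and 0.09, Oas1a -0.35, -0.23 and 0.37 and Oasl1 -0.54, -0.15 and 0.59. Mx2, of the dynamin-like GTPase family and annotated in mouse as a polymorphic pseudogene, gave -0.06, 0.02 and 0.0, and Rsad2 -0.29, 0.49 and 0.07. Bst2 encodes tetherin, which holds budding virus at the cell surface, and gave -0.27, -0.1 and 0.38. Ifi44 gave -0.41, 0.24 and 0.09, Rtp4 -0.18, 0.18 and 0.3, Xaf1, a promoter of cell death, -0.31, 0.18 and 0.17 and Ifi35 -0.12, -0.47 and 0.36. Over the 14 effectors tested in each tissue, 13 were negative in heart, 4 in kidney and none in fat. Oas3 was too low to test within any tissue. Heart control cells held 0 to 0.744 CPM, kidney 0.256 to 1.23 and fat 0.163 to 1.33, and 1 fat library, scrambled cells 4, reached 7.45.

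Isg15 is a ubiquitin-like protein that is attached to other proteins and also secreted. Isg15 in the heart stood at 5.02, 9.02, 4.47, 4.91 and 3.75 CPM with control cells, 3.19, 2.93, 3.1, 3.55 and 6.26 with NaKtide cells and 3.7, 4.52, 3.23, 4.41 and 3.45 with scrambled cells. Isg15 without cells, in heart, was 5.14, 5.65, 5, 4.37 and 2.74 CPM in Sham and 7.31, 3.41, 2.91, 9.2 and 4.37 in PNx. PNx 4 and control cells 2 were the highest in heart, and the difference was -0.49 (95% interval -1.01 to 0.03). Isg15 in the kidney stood at 4.98, 4.48, 4.23, 9.46 and 13.6 CPM with control cells, 4.99, 6.28, 5.66, 3 and 3.87 with NaKtide cells and 5.12, 7.03, 10.7, 7.91 and 14.1 with scrambled cells. Isg15 without cells, in kidney, was 3.12, 3.02, 2.42, 2.52 and 3.87 CPM in Sham and 3.25, 4.05, 8.41, 6.6 and 5.33 in PNx. Scrambled cells 5 and control cells 5 were the highest in kidney, the arms overlapped, and the difference was 0.03 (95% interval -0.57 to 0.62). Isg15 in the visceral fat stood at 5.21, 10.6, 5.97, 4.73 and 8.01 CPM with control cells, 11.1, 5.13, 5.8, 7.01 and 7.13 with NaKtide cells and 6.83, 8.43, 15.1 and 28.2 with scrambled cells. Isg15 without cells, in visceral fat, was 11.9, 5.08, 8.79, 8.15 and 8.91 CPM in Sham and 4.11, 10.9, 3.94, 8.36 and 4.96 in PNx. In fat the difference was 0.57 (95% interval -0.12 to 1.26), with scrambled cells 4 on top. Usp18, the enzyme that removes Isg15 from proteins and damps the receptor, gave -0.43, -0.1 and 0.37. Parp9 and Parp14, of the ADP-ribosyltransferase family, gave -0.1, 0.04 and -0.23 and -0.06, 0.08 and 0.07.

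All 7 GTPases were negative in heart, with a median of -0.754. Gbp3, a guanylate-binding protein, had the lowest p of the members. Gbp3 in the heart stood at 7.72, 45.8, 12.4, 23.3 and 15.9 CPM with control cells, 8.85, 14.2, 13.2, 9.16 and 8.1 with NaKtide cells and 12.2, 12.4, 5.31, 10.5 and 9.49 with scrambled cells. Control cells 2, 4 and 5 exceeded every vector library, while control cells 1 lay below all but 1 of them. The difference was -1.01 (95% interval -1.64 to -0.38), adjusted p = 1, and it was -0.52 without control cells 2. Voom called it at -1.09 (adjusted p = 0.032). Gbp5, which takes part in inflammasome assembly, followed. Gbp5 in the heart stood at 6.05, 24.5, 8.6, 14.4 and 10.8 CPM with control cells, 6.2, 7.72, 8.83, 3.69 and 3.9 with NaKtide cells and 8.6, 8.52, 6, 7.57 and 6.54 with scrambled cells. Control cells 2, 4 and 5 again exceeded every vector library, and control cells 1 and 3 lay among them. The difference was -0.93 (95% interval -1.5 to -0.35), adjusted p = 1, and -0.56 without control cells 2. By voom it was called at -0.97 (adjusted p = 0.03). In kidney and fat, Gbp3 gave 0.21 and 0.12, and Gbp5 0.02 and 0.6. Gbp7 gave -0.36, 0.08 and -0.07.

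Gbp2 is another guanylate-binding protein. Gbp2 in the heart stood at 14.2, 37.6, 14.1, 20.8 and 12.9 CPM with control cells, 14.6, 15.7, 16.2, 12.2 and 13 with NaKtide cells and 13.1, 13.8, 14.2, 17.2 and 12.4 with scrambled cells. Gbp2 without cells, in heart, was 22.6, 8.04, 10.5, 21.7 and 15.9 CPM in Sham and 17.3, 12.2, 13.2, 13.4 and 11.4 in PNx. Control cells 2 was highest, and the difference in heart was -0.47 (95% interval -0.93 to -0.02). Gbp2 in the kidney stood at 10.2, 11.5, 4.41, 2.3 and 3.7 CPM with control cells, 4.18, 10.1, 9.02, 5.7 and 7.23 with NaKtide cells and 7.99, 12, 5.93, 5.47 and 13.9 with scrambled cells. Gbp2 without cells, in kidney, was 4.82, 5.04, 6.24, 6.39 and 6.91 CPM in Sham and 5.98, 6.5, 4.86, 4.66 and 2.1 in PNx. The kidney arms overlapped, with a difference of 0.22 (95% interval -0.43 to 0.88). Gbp2 in the visceral fat stood at 93.9, 78.8, 52.7, 65 and 62.4 CPM with control cells, 71.8, 67, 58.4, 81.4 and 71 with NaKtide cells and 77.2, 66, 122 and 273 with scrambled cells. Gbp2 without cells, in visceral fat, was 19, 87, 52.4, 17.2 and 60.5 CPM in Sham and 66.4, 56.4, 72.8, 89.7 and 81 in PNx. Scrambled cells 4 and 3 were the highest in fat, and the difference was 0.46 (95% interval -0.24 to 1.16).

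Iigp1, Igtp and Irgm1 are GTPases that act on the vacuoles of intracellular parasites. Iigp1 in the heart stood at 21.4, 92.9, 21, 40.8 and 24.3 CPM with control cells, 14.4, 20.2, 25.8, 18.2 and 15.2 with NaKtide cells and 42, 34.6, 23.6, 20.2 and 28.8 with scrambled cells. Iigp1 without cells, in heart, was 40.3, 13.7, 35.5, 37.1 and 38.6 CPM in Sham and 16.1, 17, 17.3, 21.3 and 23 in PNx. Heart control cells 2 was highest, and the difference was -0.75 (95% interval -1.34 to -0.16). Iigp1 in the kidney stood at 11.8, 19.3, 3.29, 2.81 and 1.23 CPM with control cells, 3.1, 5.76, 5.99, 3.96 and 5.04 with NaKtide cells and 6.46, 10.7, 5, 4.88 and 19.3 with scrambled cells. Iigp1 without cells, in kidney, was 7.38, 4.82, 7.48, 7.57 and 6.56 CPM in Sham and 5.85, 6.56, 5.26, 3.11 and 0.841 in PNx. Control cells 2 and scrambled cells 5 shared the highest kidney level, and the difference was -0.37 (95% interval -1.25 to 0.51). Iigp1 in the visceral fat stood at 13.4, 53, 24.9, 9.9 and 39 CPM with control cells, 10.3, 11.5, 8.92, 18.7 and 15.4 with NaKtide cells and 19.1, 22.2, 79.3 and 465 with scrambled cells. Iigp1 without cells, in visceral fat, was 13.2, 24.2, 18.7, 11.4 and 31.8 CPM in Sham and 38.5, 23.6, 18.3, 16.9 and 17.5 in PNx. All 5 NaKtide libraries lay below all 4 scrambled libraries, while control cells overlapped both, and the difference of vector arms and control cells was 0.63 (95% interval -0.56 to 1.81). Igtp and Irgm1 had the lowest p in kidney. Igtp in the kidney stood at 28.2, 89.6, 11.2, 21 and 16.1 CPM with control cells, 9.98, 14.5, 12.1, 15.4 and 11.8 with NaKtide cells and 19.4, 25, 14.7, 14.2 and 31.5 with scrambled cells. Irgm1 in the kidney stood at 70.4, 157, 47.7, 41.7 and 38.3 CPM with control cells, 28, 44.3, 46.9, 54.2 and 45.3 with NaKtide cells and 47.4, 58.2, 33.9, 35.5 and 67.4 with scrambled cells. Control cells 2 was the highest kidney library for both. The differences were -1.08 (95% interval -1.73 to -0.42) for Igtp, adjusted p = 0.22, and -0.65 (95% interval -1.17 to -0.13) for Irgm1, adjusted p = 0.267. Without control cells 2 they were -0.25 and -0.13. Voom called both, Igtp at -1.23 (adjusted p = 0.039) and Irgm1 at -0.91 (adjusted p = 0.027). In heart and fat, Igtp gave -0.81 and 0.7, and Irgm1 -0.34 and 0.32.

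Class I presentation came next. Psmb8 is a catalytic subunit of the immunoproteasome, which cuts the peptides. Psmb8 in the heart stood at 15.7, 33.1, 13.8, 27.9 and 16 CPM with control cells, 10.9, 15.4, 13.5, 16.1 and 19.5 with NaKtide cells and 14.2, 18.4, 17, 15.6 and 12.9 with scrambled cells. Psmb8 without cells, in heart, was 18.3, 25.9, 33.2, 22.5 and 15 CPM in Sham and 27.3, 13.4, 17.5, 17.4 and 14.6 in PNx. The heart difference was -0.47 (95% interval -0.89 to -0.04), with overlapping arms, and voom called it at -0.69 (adjusted p = 0.041). Psmb8 in the kidney stood at 14.2, 21.8, 10.7, 41.2 and 42 CPM with control cells, 12, 14.2, 13.5, 11.2 and 10.6 with NaKtide cells and 16.9, 27, 16.3, 21.9 and 36.5 with scrambled cells. Psmb8 without cells, in kidney, was 8.13, 8.96, 9.91, 10.1 and 11.6 CPM in Sham and 14.4, 12.2, 56.7, 20.2 and 16.5 in PNx. NaKtide libraries all lay below scrambled libraries in kidney, control cells spread across both, and the difference was -0.51 (95% interval -1.18 to 0.16). Psmb8 in the visceral fat stood at 45.3, 79, 71.2, 65.7 and 58.3 CPM with control cells, 68.2, 42.2, 62, 36.4 and 50.8 with NaKtide cells and 60.4, 61.6, 124 and 216 with scrambled cells. Psmb8 without cells, in visceral fat, was 17.7, 30.2, 28.3, 20.4 and 29.3 CPM in Sham and 64, 119, 48.4, 52.8 and 65.3 in PNx. The fat difference was 0.28 (95% interval -0.3 to 0.85). Psmb9, its partner subunit, gave -0.31, -0.65 and 0.43. Tap1 and Tap2 form the transporter that carries the peptides, and had differences of -0.58, -0.55 and 0.28 and -0.08, -0.15 and 0.14. Tap1 in the kidney stood at 14.8, 29.4, 7.04, 15.1 and 14.8 CPM with control cells, 5.8, 13, 11.3, 9.47 and 9.42 with NaKtide cells and 17.1, 12.5, 7.18, 12.4 and 14.1 with scrambled cells. Control cells 2 was highest, the kidney difference had an adjusted p of 0.315, and it was -0.17 without that library. Psmb8, Psmb9, Tap1 and Tap2 lie side by side on chromosome 17 and the Psmb9 and Tap1 models overlap, so with strandedness not given in the sources used here their counts are not fully separate.

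B2m pairs with every class I heavy chain. B2m in the heart stood at 187, 236, 140.1, 279 and 161 CPM with control cells, 144, 179.9, 166, 165 and 182 with NaKtide cells and 209.5, 208, 208, 176 and 128 with scrambled cells. B2m without cells, in heart, was 174, 182, 149.5, 233 and 167 CPM in Sham and 265, 170.1, 184, 251 and 138 in PNx. Heart arms overlapped, with a difference of -0.19 (95% interval -0.52 to 0.15). B2m in the kidney stood at 192, 218, 207, 248 and 178 CPM with control cells, 149.7, 193, 195, 204 and 179 with NaKtide cells and 221, 287, 197, 209 and 308 with scrambled cells. B2m without cells, in kidney, was 148, 168, 182, 199 and 198 CPM in Sham and 254, 209, 303, 222 and 197 in PNx. Kidney arms overlapped too, and the difference was 0.02 (95% interval -0.25 to 0.29). B2m in the visceral fat stood at 893, 688, 904, 800 and 701 CPM with control cells, 891, 663, 823, 863 and 1613 with NaKtide cells and 938, 653, 796 and 1129 with scrambled cells. B2m without cells, in visceral fat, was 714, 982, 808, 653 and 765 CPM in Sham and 772, 819, 741, 785 and 889.6 in PNx. NaKtide cells 5 stood apart in fat, and the difference was 0.21 (95% interval -0.16 to 0.58). H2-K1 in the heart stood at 41.5, 43.8, 29.2, 62.3 and 35.2 CPM with control cells, 24.7, 35.7, 31.3, 26.5 and 55.2 with NaKtide cells and 38.3, 40.9, 45.3, 35 and 27.8 with scrambled cells. H2-K1 without cells, in heart, was 40.8, 66.7, 49.5, 41.3 and 34.8 CPM in Sham and 70.2, 36.6, 38.2, 40 and 25.6 in PNx. The heart difference of H2-K1 was -0.23 (95% interval -0.68 to 0.21). H2-K1 in the kidney stood at 51, 52.4, 48.2, 133 and 109 CPM with control cells, 58.8, 51.5, 48.4, 49.7 and 46.5 with NaKtide cells and 61.6, 74.1, 49.6, 71.5 and 71.6 with scrambled cells. H2-K1 without cells, in kidney, was 45.7, 42.6, 44.5, 45.3 and 47.7 CPM in Sham and 53.6, 47.9, 142, 78.4 and 73.4 in PNx. PNx 3 and control cells 4 and 5 were the highest in kidney, and the difference was -0.42 (95% interval -0.9 to 0.05). H2-K1 in the visceral fat stood at 219, 199, 284, 267 and 228 CPM with control cells, 239, 194, 247, 183 and 237 with NaKtide cells and 283, 228, 293 and 409 with scrambled cells. H2-K1 without cells, in visceral fat, was 102, 252, 184, 100.1 and 186 CPM in Sham and 231, 333, 194, 247 and 273 in PNx. The fat difference was 0.11 (95% interval -0.3 to 0.52). H2-D1 gave -0.15, -0.14 and 0.11. H2-K1 and H2-D1 share much of their sequence with other class I genes, so reads could be split between them.

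The chemokines Cxcl9 and Cxcl10 draw cells that carry Cxcr3, among them NK cells. Cxcl9 in the heart stood at 0.837, 6.19, 0.827, 1.75 and 0.718 CPM with control cells, 1, 0.977, 1.31, 1.37 and 0.616 with NaKtide cells and 2.27, 1.26, 0.924, 1.25 and 0.503 with scrambled cells. Cxcl9 without cells, in heart, was 0.811, 0.652, 0.909, 2.11 and 1.54 CPM in Sham and 0.839, 0.717, 0.856, 2.1 and 0.785 in PNx. Control cells 2 was highest in heart, and the difference was -0.81 (95% interval -1.71 to 0.1). Cxcl9 in the kidney stood at 0.337, 0.448, 0.376, 0.511 and 0 CPM with control cells, 0.27, 0.259, 0.656, 0.773 and 0.877 with NaKtide cells and 0.987, 1.47, 0.624, 0.586 and 0.682 with scrambled cells. Cxcl9 without cells, in kidney, was 0.662, 1.01, 1.11, 1.51 and 1.05 CPM in Sham and 1.04, 1.01, 0.131, 0.647 and 0.14 in PNx. The kidney scrambled libraries all lay above the control cell libraries, NaKtide libraries overlapped both, and the difference of the vector arms was 0.83 (95% interval -0.12 to 1.78). That separation rests on few reads: counts were 4, 5, 4, 2 and 0 with control cells and 11, 13, 6, 6 and 8 with scrambled cells. The 0 is from control cells 5, a library of 1241590 counts. Cxcl9 in the visceral fat stood at 20, 40, 24.9, 37.1 and 29.5 CPM with control cells, 16.2, 8.16, 9.46, 16.8 and 25.4 with NaKtide cells and 54.3, 26.2, 51.8 and 86.7 with scrambled cells. Cxcl9 without cells, in visceral fat, was 5.21, 27.7, 24.1, 3.06 and 22.5 CPM in Sham and 24.7, 31.7, 22.9, 23 and 35.5 in PNx. Fat NaKtide libraries lay below every scrambled library, and the difference of both vector arms from control cells was -0.07 (95% interval -0.89 to 0.74). Cxcl10 in the heart stood at 0.465, 0.135, 0.248, 0.351 and 0 CPM with control cells, 0.0912, 0, 0.119, 0 and 0.308 with NaKtide cells and 0.239, 0, 0.346, 0.0959 and 0.0719 with scrambled cells. Cxcl10 without cells, in heart, was 0.135, 0, 0.909, 0 and 0.11 CPM in Sham and 0.24, 0, 0.0856, 0.161 and 0.224 in PNx. These heart values rest on a few counts and were not tested within heart. Cxcl10 in the kidney stood at 2.28, 2.6, 1.6, 0.767 and 1.23 CPM with control cells, 2.29, 2.85, 4.02, 1.64 and 2.26 with NaKtide cells and 2.51, 2.72, 3.02, 2.05 and 5.88 with scrambled cells. Cxcl10 without cells, in kidney, was 2.36, 2.46, 1.94, 3.03 and 2.93 CPM in Sham and 2.86, 3.84, 0.526, 3.11 and 0.561 in PNx. Kidney arms overlapped, with a difference of 0.65 (95% interval -0.16 to 1.45). Cxcl10 in the visceral fat stood at 0.326, 1.29, 0.648, 0.591 and 0.684 CPM with control cells, 1.32, 0.633, 0.446, 0.915 and 1 with NaKtide cells and 0.6, 1.04, 1.19 and 17.2 with scrambled cells. Cxcl10 without cells, in visceral fat, was 0.163, 1.23, 0.989, 0.437 and 1.52 CPM in Sham and 0.493, 0.415, 0.757, 0.76 and 1.04 in PNx. One fat library, scrambled cells 4, lay far above the rest. The difference was 1.5 (95% interval 0.12 to 2.89), adjusted p = 0.504, and 0.32 without that library.

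Whether the vector difference itself varied between tissues was tested as an interaction. No member was called for kidney minus heart, fat minus heart or fat minus kidney by edgeR, where 0%, 0.803% and 1.96% of all genes were called. At an unadjusted p under 0.05 there were 4, 13 and 5 members, beside 811, 1399 and 2798 of all 19180 genes. The median interaction of the members was 0.3, 0.49 and 0.14, beside 0.04, -0.01 and -0.1 over all genes. Each arm against control cells alone gave the same count in heart and kidney: no member was called by edgeR or DESeq2 for NaKtide or for scrambled cells, with 0% of all genes called in heart for either, and 0% and 0.0123% in kidney. Unadjusted, 8 and 7 members had a p under 0.05 in heart, beside 1.37% and 7.28% of all genes. In kidney there were 6 and 1, beside 12.89% and 10.75%. Voom called 0 and 2 members in heart and 2 and 3 in kidney. NaKtide against scrambled cells called no member by edgeR or DESeq2 in heart or kidney, with 0% of all genes called in each by edgeR. At an unadjusted p under 0.05 there were 0 and 4 members, beside 5.98% and 5.02% of all genes. Voom called 9 members in kidney, with Psmb8 at -0.95 (adjusted p = 0.0031), Bst2 at -0.71 (adjusted p = 0.0053) and B2m at -0.46 (adjusted p = 0.0071) among those lower with NaKtide, and Ddx58 higher at 0.51 (adjusted p = 0.028). Without the share of all genes that voom called, this count cannot be read as particular to the members.

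The 2 vector arms parted in fat. Scrambled cells stood above NaKtide cells for 41 of 43 members, with a median log2 difference of -0.87 for NaKtide minus scrambled cells, beside 0.01 over all genes. Of the 43, 9 were called lower with NaKtide and none higher, where 2.12% of all genes were called lower. Those were Igtp, Iigp1, Gbp3 and Gbp5 of the GTPases, Irf1, Tap1, Tap2, Cxcl9 and Zbp1. Igtp in the visceral fat stood at 11.1, 38.8, 23.2, 16.7 and 26.2 CPM with control cells, 13.2, 12.1, 12.9, 14.5 and 16.5 with NaKtide cells and 14.9, 23.3, 76.2 and 298 with scrambled cells. The 5 NaKtide libraries lay at 12.1 to 16.5 CPM, overlapping scrambled cells 1, and the log2 difference was -2.9 ± 0.57 (SE, adjusted p = 0.0079). For Iigp1, whose values are given above, it was -3.5 ± 0.71 (SE, adjusted p = 0.0095). Irf1 in the visceral fat stood at 44.1, 59.4, 50.7, 58.7 and 53.5 CPM with control cells, 48.5, 33.3, 37.5, 39.5 and 38 with NaKtide cells and 53.2, 50.8, 86.9 and 186 with scrambled cells. Irf1 did not overlap between the vector arms, and the difference was -1.26 ± 0.27 (SE, adjusted p = 0.015). Tap1 in the visceral fat stood at 24.1, 46.4, 34.9, 35.9 and 31.4 CPM with control cells, 27.6, 27.6, 25.5, 27.1 and 28.9 with NaKtide cells and 38.1, 31.3, 62.1 and 125 with scrambled cells. Tap1 did not overlap either, at -1.23 ± 0.27 (SE, adjusted p = 0.019). Gbp5 in the visceral fat stood at 7.82, 19.9, 8.56, 6.06 and 9.77 CPM with control cells, 4.88, 6.54, 2.86, 12.8 and 5.79 with NaKtide cells and 9.59, 12.1, 31.1 and 101 with scrambled cells. Here NaKtide cells 4 exceeded scrambled cells 1 and 2, and the difference was -2.56 ± 0.57 (SE, adjusted p = 0.019). Tap2 in the visceral fat stood at 55, 56.5, 50.4, 59.7 and 55 CPM with control cells, 52.2, 40.6, 35.6, 45 and 51.9 with NaKtide cells and 68.5, 53.7, 85.6 and 124 with scrambled cells. All NaKtide libraries lay below all scrambled libraries, at -0.88 ± 0.21 (SE, adjusted p = 0.025). Gbp3 gave -1.91 ± 0.45 (SE, adjusted p = 0.026), Cxcl9 -1.85 ± 0.48 (SE, adjusted p = 0.04) and Zbp1 -2.44 ± 0.64 (SE, adjusted p = 0.044).

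**Figure D4:**
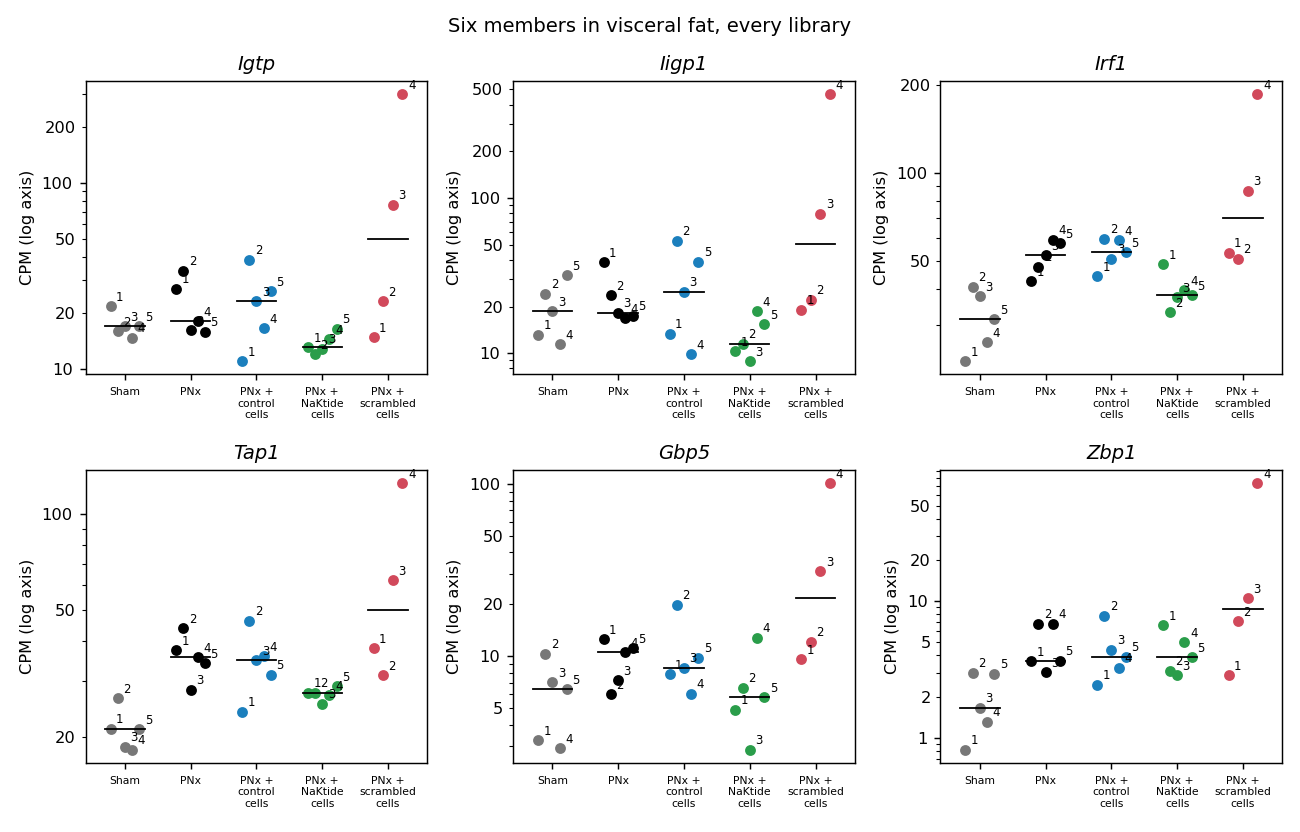
CPM (log axis) of Igtp, Iigp1, Irf1, Tap1, Gbp5 and Zbp1 in every visceral fat library (numbered points) by arm, with the median of each arm (lines). Scrambled cells 4 is the highest library in each of the 6 plots, followed by scrambled cells 3.

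Against control cells, fat scrambled cells were higher for 41 of 43 members, with a median of 0.67, and 2 were called higher: Igtp at 2.14 ± 0.56 (SE, adjusted p = 0.044) and Zbp1 at 2.41 ± 0.64 (SE, adjusted p = 0.047), where 1.94% of all genes were called higher. The arms overlapped for both genes. NaKtide cells against control cells called none (0% of all genes), with a median of -0.18. An unadjusted p under 0.05 was reached by 1 member, Cxcl9, beside 7.58% of all genes. These contrasts share libraries, so they are not separate evidence. The calls rested on scrambled cells 4: without it no member was called in either contrast, and the medians were -0.33 against NaKtide and 0.24 against control cells. For NaKtide minus scrambled cells, Igtp was then -1.46 and Iigp1 -1.63, Irf1 -0.69 and Zbp1 -0.66. Voom on every library did not call Igtp (-1.4, adjusted p = 0.078), Iigp1 (-1.86, adjusted p = 0.065) or Zbp1 (-1.12, adjusted p = 0.137). It did call Irf1 (-0.87, adjusted p = 0.033), Tap1 (-0.82, adjusted p = 0.042), Tap2, Gbp3, Gbp5 and Cxcl9 lower with NaKtide. Dhx58, Rsad2, Gbp7 and Psmb9 were called lower by voom and not by edgeR. The share of all genes called by voom is not given. In the contrast with NaKtide, leaving out NaKtide cells 2 or 3 left 2 calls, NaKtide cells 4 left 5 and scrambled cells 1 gave 14. In the contrast with control cells, leaving out control cells 1, 3, 4 or 5 left none, scrambled cells 2 gave 5 and scrambled cells 1 gave 7. With only the arms compared in the fit, no member was called in either contrast.

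Markers of other cells moved with that library and with the arms. The B cell list, nearly all of it Ighm, summed to 235 to 476 CPM in the NaKtide libraries and 43.8 to 127 in the scrambled ones, without overlap. Skeletal muscle markers summed to 23.4 to 69 CPM with NaKtide and 491 to 35842 with scrambled cells, also without overlap. Scrambled cells 4 was the highest fat library for 9 of 10 macrophage markers, 7 of 8 NK cell markers, 6 of 7 neutrophil markers, 3 of 8 T cell and 2 of 5 lymph node stroma markers. Its macrophage markers summed to 8092 CPM, against 865, 1772 and 1664 in its 3 partners. Its neutrophil markers came to 329 CPM, against 13.9 to 15.9, and its NK markers to 43.4. With the mean macrophage marker level as a covariate, chosen after the data were seen, 1 member was called between NaKtide and scrambled cells, Irf1 at -0.66 (adjusted p = 0.025), and none between scrambled and control cells. The part of the other marker lists in the gene differences was not tested. Of the interferon ligands, Ifnb1 was at 0 in every library of the series and Ifng reached 0.73 CPM in fat scrambled cells 4. The ligand list of 12 genes also holds the interleukins Il15, Il18 and Il27, so its sum is not a level of interferon RNA alone. These genes summed to 17.4 CPM in that library, against 8.48 to 11.8 in its partners and 7.57 to 16.4 with NaKtide. That was the highest sum of all libraries. In kidney Sham the same 12 genes summed to 11.8 to 16.4 CPM.

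Partial nephrectomy without cells was compared with Sham as the setting of the cell arms. In heart no member was called (0.126% of all genes) and the median was -0.24. An unadjusted p under 0.05 was reached by 3 members, beside 15.82% of all genes. Neither DESeq2 nor voom called a member there, and without Sham 2 and 3 the median was -0.27 with none called. Igtp of PNx hearts lay at 11.7 to 14 CPM, below the 15 to 29.9 of Sham, with a log2 difference of -0.88 (95% interval -1.64 to -0.11, adjusted p = 0.252). Igtp falls outside the naming rule for this contrast, where the lowest adjusted p of a member was 0.231 by edgeR. How many members or genes separated these arms was not counted.

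In kidney, 7 of 43 members rose after PNx and none fell by edgeR, where 9.25% of all genes were called higher. They were the effectors Oasl1, Bst2, Ifi35 and Oas1a, the factor Irf7, and Psmb8 and H2-K1 of class I presentation. No GTPase was called by edgeR, and all 7 of them were negative. Voom called 14 members, 12 higher and 2 lower, the lower ones being Gbp5 at -2.05 (adjusted p = 0.0069) and Ifih1 at -0.86 (adjusted p = 0.02). Oasl1 was 3.59, 2.8, 1.73, 2.52 and 3.75 CPM in Sham and 4.81, 5.01, 7.89, 6.34 and 4.76 in PNx. The arms did not overlap, and the log2 difference was 1.0 ± 0.24 (SE, adjusted p = 0.017). Bst2 was 11.3, 10.4, 9.35, 9.25 and 14.2 in Sham and 13.3, 13.3, 59.4, 28.9 and 20.3 in PNx. PNx 1 and 2 overlapped Sham 5, and the difference was 1.31 ± 0.33 (SE, adjusted p = 0.02). Irf7 gave 1.01 ± 0.29 (SE, adjusted p = 0.03), with PNx 3 far above the rest. Ifi35 was 11, 12.2, 11.6, 11.8 and 12.8 in Sham and 14.2, 14.1, 47.5, 23.4 and 26.1 in PNx, without overlap, at 1.07 ± 0.31 (SE, adjusted p = 0.031). Psmb8 and H2-K1 did not overlap between the arms, at 1.3 ± 0.38 (SE, adjusted p = 0.031) and 0.81 ± 0.27 (SE, adjusted p = 0.044). Oas1a was 4.44, 3.36, 2.91, 2.36 and 5.86 in Sham and 4.42, 4.16, 22.9, 9.32 and 6.87 in PNx. Sham 5 exceeded PNx 1 and 2, and the difference was 1.31 ± 0.44 (SE, adjusted p = 0.044). The median over the members was 0.28, beside 0.05 over all genes. With the second library of one Sham number kept as a separate sample, 13 members were called.

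**Figure D5:**
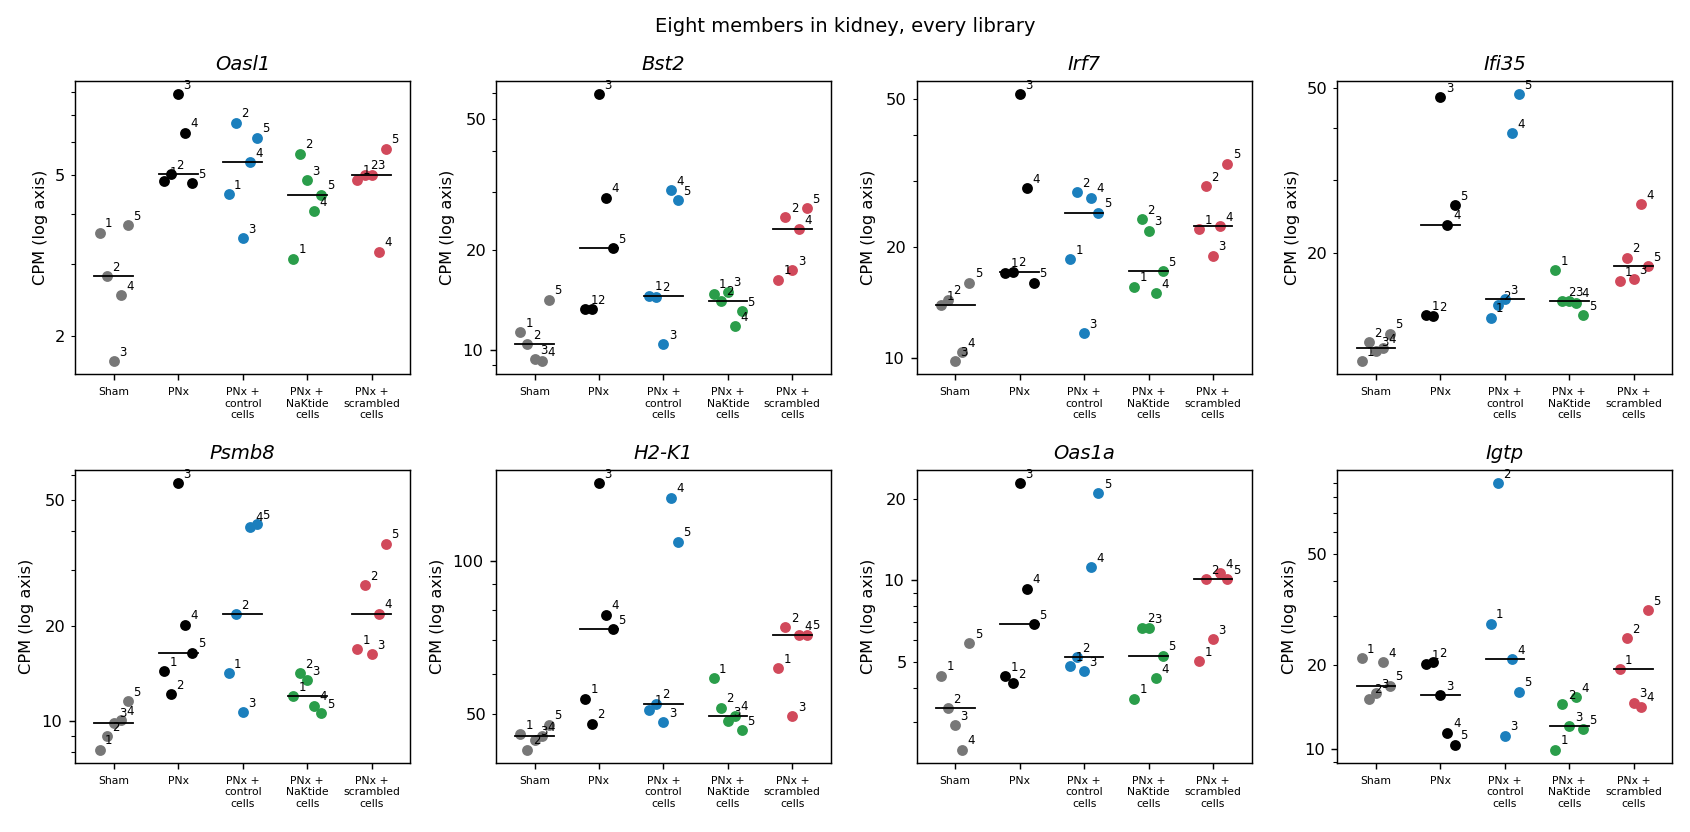
CPM (log axis) of the 7 members called between PNx and Sham in kidney, and of Igtp, in every library (numbered points) by arm, with the median of each arm (lines). PNx 3 is the highest PNx library for the 7 called members, and control cells 2 is the highest library for Igtp.

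The kidney calls rested on few libraries. Without PNx 3 no member was called, without PNx 4, Sham 1 or Sham 2 there were 2, without Sham 3 or Sham 4 there was 1, without Sham 5 there were 4, and without PNx 1 or PNx 2 there were 11 and 15. In PNx 3, 4 and 5 the level of short minus long genes was 0.14, -0.04 and 0.16 on the log2 scale, and in control cells 4 and 5 it was 0.24 and 0.29, against -1.22 to -1.01 in Sham. NaKtide cells ran from -1.33 to -0.18 and scrambled cells from -0.98 to -0.2, so the kidney vector contrast also spans libraries that differ in it. The called members had a median exon length of 2608 bases and the other tested members 3951. With that index as a covariate 2 members were called, Oasl1 at 1.06 (adjusted p = 0.025) and Ddx58 at 0.53 (adjusted p = 0.037). Without PNx 3, 4 and 5 and control cells 4 and 5, an alternative chosen after the data were seen, none was called, nor with only PNx and Sham in the fit. Macrophage markers summed to 114 to 1586 CPM in PNx and 109 to 141 in Sham, and neutrophil markers reached 2601 CPM in PNx 3. With the macrophage covariate, also chosen after the data were seen, no member was called, and the part of either measure was not tested further.

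In fat, 9 of 43 members rose after PNx and none fell, where 4.83% of all genes were called higher. They were Xaf1, Bst2 and Oas2 of the effectors, Psmb8, Psmb9, Tap2 and H2-D1 of class I presentation, the sensor Dhx58 and Irf7. Xaf1 was 5.21, 8.06, 6.81, 4.37 and 7.15 CPM in Sham and 14.5, 19.4, 11.4, 13.8 and 13.7 in PNx. The arms did not overlap, at 1.2 ± 0.25 (SE, adjusted p = 0.0029). Psmb8, given above, did not overlap either, at 1.47 ± 0.32 (SE, adjusted p = 0.0044). Tap2 was 28.2, 50.1, 38.3, 23.7 and 35.7 in Sham and 63.5, 73.3, 62.5, 58.1 and 73.1 in PNx, without overlap, at 0.91 ± 0.2 (SE, adjusted p = 0.0045). Bst2 was 11.9, 22.3, 19.1, 18.3 and 22.6 in Sham and 34.2, 65.2, 35.6, 45.5 and 30.1 in PNx. It was without overlap, at 1.16 ± 0.29 (SE, adjusted p = 0.01). Psmb9 was 8.3, 19.5, 18.7, 13.8 and 17.7 in Sham and 29.6, 59.2, 25.3, 24.3 and 28.8 in PNx, without overlap, at 1.1 ± 0.32 (SE, adjusted p = 0.027). Dhx58 was 4.07, 7.71, 5.05, 3.64 and 5.39 in Sham and 6.74, 9.55, 8.48, 10.2 and 8.09 in PNx. Sham 2 exceeded PNx 1, and the difference was 0.74 ± 0.22 (SE, adjusted p = 0.028). Oas2 had the widest difference at 2.07 ± 0.62 (SE, adjusted p = 0.031). H2-D1 gave 0.84 ± 0.26 (SE, adjusted p = 0.037) and Irf7 0.74 ± 0.24 (SE, adjusted p = 0.043). The members' median was 0.63, beside 0.01 over all genes.

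Markers of other tissue moved with the fat arms. Epididymis markers summed to 62.6 to 9873 CPM in Sham and to at most 34.6 in PNx. With their level as a covariate no member was called and the median was -0.21, and with the macrophage covariate 1 member was called, Cxcl10 lower at -2.12 (adjusted p = 0.031). Both alternatives were chosen after the data were seen. Sham 2, the Sham library with 62.6 CPM of epididymis markers, lay below every PNx library for Xaf1, Psmb8, Tap2, Bst2, Psmb9, Oas2 and Irf7, and within their range for Dhx58 and H2-D1. The gap to the lowest PNx library was narrow for Oas2 (4.56 against 4.61 CPM) and Irf7 (28 against 28.4 CPM). These members were called in a test that includes Sham 2, so its place is a description only. Over all members, the mean log2 level of Sham 2 was 4.33, within the 4.25 to 4.56 of the PNx libraries. Macrophage markers summed to 283 to 641 CPM in Sham and 645 to 1380 in PNx. The calls numbered 4 without Sham 1 or Sham 4, 5 without Sham 5 or PNx 2, 16 without Sham 2 and 4 with only PNx and Sham in the fit.

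Against PNx without cells, no member was called for the vector arms in heart (0.192% of all genes), kidney (0.0123%) or fat (0%), nor for control cells in heart, kidney or fat (0% of all genes in each). At an unadjusted p under 0.05 there were 0, 3 and 1 members for the vector arms and 9, 2 and 0 for control cells. Of all genes, 19.38%, 20.1% and 7.1% reached that p for the vector arms and 8.36%, 6.43% and 2.52% for control cells. The medians were 0.06, 0.13 and 0.2 for the vector arms and 0.25, 0.03 and 0.01 for control cells. In 17 of the 21 comparisons between arms no member was called by edgeR. DESeq2 called none in those 17, and voom called 1 or more in 10 of them, 9 at most.

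Around the list, 72 further genes of the pathway were found in the table, of 74 looked for: ligands, receptors and kinases, transcription factors, sensors of nucleic acid, negative regulators and the other parts of antigen presentation. None of the 58 tested in heart, 57 in kidney and 61 in fat was called between the vector arms and control cells. Nlrc5, the activator of class I genes, lay in fat at 15.4 to 38.4 CPM with control cells, 14.7 to 34.6 with NaKtide and 20 to 66.1 with scrambled cells. Ifnar1, a receptor chain for type I interferon, lay at 56.4 to 66.2, 46.1 to 64.9 and 43.2 to 93. Among the pathway genes called between cell arms in fat, and named after their values were seen, were the feedback regulator Socs3 (-2.46 for NaKtide minus scrambled and 2.72 for scrambled minus control cells) and the kinase gene Ikbke (2.24 for scrambled minus control cells), beside 2.12% of all genes called lower in the first contrast and 1.94% higher in the second. Without scrambled cells 4, an alternative chosen after the data were seen, neither was called: Socs3 came to -0.41 and 0.67 and Ikbke to -0.02. After PNx, 15 of 57 rose and 2 fell in kidney, beside 9.25% of all genes called higher, and 17 of 61 rose and 4 fell in fat, beside 4.83%. The 6 class II presentation genes were all called higher in kidney, with a median of 1.42, and 4 of 6 in fat. Their sum in kidney was 1841 CPM in PNx 3 and 419 to 789 in the other PNx libraries, and PNx 3 also held the most macrophage and neutrophil markers of its arm. Without PNx 3, chosen after the data were seen, none of the 6 was called and the median was 0.84.

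Members with and without the element shown above were set side by side, as a description. Between the vector arms and control cells the medians were -0.36 with the element (16 tested) and -0.32 without it (16 tested) in heart, 0.05 (17) and -0.13 (16) in kidney, and 0.29 (17) and 0.14 (16) in fat. For NaKtide minus scrambled cells in fat they were -0.99 and -0.6, with 3 members called in each set. After PNx in fat they were 0.49 with the element and 0.74 without it, and in kidney 0.04 and 0.4, so the members without the element had the higher median in both.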

How the data were processed

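Bulk RNA was extracted with a Qiagen RNeasy Plus Universal kit, per the labels. Raw counts per gene are whole-number values deposited by the authors, and the authors' FPKM values, named so in the file headers, differ from their normalized counts only by a factor for each gene. The submitters' processing notes name build GRCm38, HISAT2 2.1.0, Trimmomatic 0.38 and, in 2 releases, DESeq2 (1.20.0, 1.20.1). Counting tool, annotation and strandedness: not given in the sources used here. A second library of number 3 in Kidney Sham and in fat with scrambled cells was added to the first, which made 74 samples. The labels do not say that both came from 1 mouse: across genes the pair correlated at 0.983 in fat, where other pairs of the arm gave 0.824 to 0.906, but at 0.961 in kidney, where other pairs gave 0.971 to 0.988. Keeping the second library separate moved the kidney PNx count from 7 to 13.

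Counts were tested within each tissue with edgeR 4.0.16 (R 4.3.3): TMM scaling, filterByExpr, a quasi-likelihood fit of the 5 arms, and Benjamini-Hochberg adjustment over 15091 genes in heart, 16307 in kidney and 17552 in fat, with calls at an adjusted p under 0.05. Tissues were compared in 1 joint fit of 19180 genes. The vector contrast is the mean of both vector arms minus control cells. Alternatives were DESeq2 1.42.0, limma 3.58.1 (voom with quality weights), other scaling and filters, fewer arms, a replicate block, other treatment of the second libraries, covariates and leaving out each library. Scripts were tested on simulated data.

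The members and lists were chosen with earlier results of these data known. All 44 members are accounted for. Values in every library are given for at most 6 called members of lowest p per comparison, for the 3 of lowest p where the vector contrast called none, and for Isg15, Ifit1, Irf7, Oasl2, Gbp2, Iigp1, Psmb8, B2m, H2-K1, Cxcl9 and Cxcl10. One gene of the pathway is not reported here.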

Additional observations from a re-analysis of the deposited data

Results flagged for a closer look

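In 24 of the 218 sets of values examined (11%), a single library lay far outside the other libraries of its arm. The cut-offs would mark about 1 in 20 sets of independent, normally distributed values. Most sets held CPM not on a log scale, and some were of members already called, so 11% is not comparable with that share. Libraries that are high for many members recur among the marks.

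Fat scrambled cells 4 was marked for 4 genes. Its Cxcl10 was 17.2 CPM against 0.6 to 1.19 in its partners, Iigp1 465 against 19.1 to 79.3, Oasl2 48.3 against 13.1 to 18.5, and Zbp1 73.6 against 2.88 to 10.5. Heart control cells 2 was marked for Cxcl9 at 6.19 CPM (others 0.718 to 1.75), Ifit1 at 11 (4.28 to 5.96), Iigp1 at 92.9 (21 to 40.8) and Isg15 at 9.02 (3.75 to 5.02). In fat, control cells 2 was marked for Oasl2 at 30.3 CPM (9.6 to 14.8).

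Among the PNx libraries, kidney PNx 3 had Psmb8 at 56.7 CPM (others 12.2 to 20.2) and Oas1a at 22.9 (4.16 to 9.32). Fat PNx 2 had Psmb8 at 119 (48.4 to 65.3) and Psmb9 at 59.2 (24.3 to 29.6), and fat PNx 4 had Oas2 at 12.6 (4.61 to 6.79). Heart PNx 1 had Psmb8 at 27.3 (13.4 to 17.5), and heart PNx 4 had Cxcl9 at 2.1 (0.717 to 0.856).

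In the Sham arms, heart Sham 2 had the lowest Iigp1 at 13.7 CPM (others 35.5 to 40.3) and heart Sham 3 the highest Cxcl10 at 0.909 (0 to 0.135). Kidney Sham 5 had Ifit1 at 4.33 (2.36 to 2.65), and fat Sham 2 had Oas2 at 4.56 (0.651 to 1.54).

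In the other vector libraries, fat NaKtide cells 5 had B2m at 1613 CPM (others 663 to 891) and fat NaKtide cells 4 had Gbp3 at 25.3 (12.6 to 15.7). Heart NaKtide cells 5 had Isg15 at 6.26 (2.93 to 3.55), and kidney scrambled cells 5 had Cxcl10 at 5.88 (2.05 to 3.02).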

How the results depend on the processing

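Counts of called members stayed within 1.5 times the reported count in 402 of 464 alternatives over 27 comparisons. A count of 0 that stayed at 0 entered as unchanged, and edgeR called no member in 17 of the 21 comparisons between arms. The pooled figure therefore says little about the comparisons with calls, whose counts are given below. Over 27 single-gene results with a call, 333 of 556 alternatives kept direction and call, 221 kept direction and lost the call and 2 turned. The 9 genes of the vector contrast had no call to keep: of 219 alternatives, 5 gained one and 2 turned. With the epididymis covariate, chosen after the data were seen, Dhx58 and H2-D1 after PNx in fat stood at -0.01 and -0.13. With the macrophage covariate, also chosen then, Cxcl10 and Zbp1 in the fat vector contrast stood at -0.15 and -0.15. The cause was not tested.

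Counts by voom and DESeq2 are given here without the share of all genes called by the same method. Voom with quality weights called 5 members for the heart vector contrast, 2 for heart scrambled cells against control cells and 2 for heart vector arms against PNx. In kidney it called 2 for the vector contrast, 2 for NaKtide and 3 for scrambled cells against control cells, 9 for NaKtide against scrambled cells, 3 for the vector arms and 5 for control cells against PNx, and 14 for PNx against Sham, 2 of them lower. In fat it called 0 for scrambled against control cells, 5 for the vector arms against PNx and 16 for PNx against Sham. For fat NaKtide against scrambled cells it called Irf1, Tap1, Tap2, Gbp3, Gbp5, Cxcl9, Dhx58, Rsad2, Gbp7 and Psmb9, each lower with NaKtide.

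For kidney PNx against Sham, the count was 4 without the expression filter, 0 with only the arms compared, 13 with the second library kept separate, 2 with the RNA length covariate, 0 with the macrophage covariate and 0 without PNx 3 to 5 and control cells 4 and 5. For fat scrambled against control cells it was 6 by DESeq2, 1 without the filter, 0 with only the arms compared, 1 with the second library dropped, 1 with it separate, 1 with the length covariate, 1 with the epididymis covariate and 0 with the macrophage covariate. For fat NaKtide against scrambled cells it was 14 by DESeq2, 0 with only the arms compared, 15 with the length covariate and 1 with the macrophage covariate. For fat PNx against Sham it was 4 with only the arms compared, 0 with the epididymis covariate and 1 with the macrophage covariate.

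Leaving out 1 library at a time gave 0 to 15 calls for kidney PNx against Sham, 0 to 7 for fat scrambled against control cells, 0 to 14 for fat NaKtide against scrambled cells and 4 to 16 for fat PNx against Sham, and 0 for the other comparisons between arms.

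Within a tissue, libraries of the same number in different arms did not deviate together: the median correlation was -0.065 in heart, -0.008 in kidney and -0.023 in fat, and 3 of 25, 5 of 25 and 7 of 24 libraries correlated best with their own number. Between tissues, over same-numbered libraries of an arm, it was 0.042 for heart and kidney, -0.015 for heart and fat and -0.002 for kidney and fat, and over the members alone 0.092, -0.167 and -0.012. The labels do not say whether tissues share mice, and the joint fit over tissues treated libraries as separate. With the replicate block, 5 members were called for kidney PNx against Sham, 6 for fat PNx against Sham, 0 for fat scrambled against control cells, 0 for fat NaKtide against scrambled cells and 0 elsewhere.

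Depth limits the lowest members: in the fits within a tissue, Oas3 in each tissue and Cxcl10 in heart could not be tested. Oas3 and Cxcl10 did enter the joint fit over tissues, where their heart values rest on few counts.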
